A study of Homo sapiens with 2 samples.

Results

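The SLC25 family was examined in RNA of SAS cells, an established human oral squamous carcinoma line from a tongue tumour, and of eSAS cells, the population obtained from SAS after 5 rounds of picking large spheroids with the Spheroid Catch device. Both were human tongue squamous-cell carcinoma cells kept in serum-supplemented medium, and total RNA was taken in the log phase of growth. The methods also describe growing lines from single cells, and whether the eSAS cells on the array came from one cell is not given in the sources used here. No other treatment separated the cells in the labels. One array of a 1-colour microarray was hybridised per population, which allows no test between the populations and no p-value, and every difference below describes these 2 arrays. Members were the genes whose name on the array was SLC25A followed by a number: 42 genes with 65 probes, of 30484 gene and transcript names on the array. Of the 65 probes, 57 probes of 37 genes were well above background on both arrays by the scanner software's criterion and 8 on neither. None was saturated or marked as an outlier. In bulk RNA, fewer cells of a type and less RNA per cell cannot be told apart.

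SLC25 proteins carry metabolites across the inner membrane of mitochondria. They bring in phosphate and ADP, send out ATP, and exchange citrate, dicarboxylates, amino acids, acylcarnitines, cofactors, nucleotides and iron between the matrix and the cytosol. Each is a small membrane protein that opens in turn to either side, and most reach the inner membrane through the TIM22 import pathway. A few members have moved to peroxisomes or to the outer membrane.

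Most of the family, like most genes measured, differed little between SAS and eSAS. The median log2 ratio, eSAS over SAS, was -0.019 over the 37 genes and -0.0012 over all 19467 genes measured. Within 0.25 of 0 lay 26 of the 37, and 13829 of the 19467. Of the 57 probes, 2 were at least 1.5-fold higher in eSAS (3.51%, against 3.09% of all 26659 probes) and 5 at least 1.5-fold lower (8.77%, against 4.89%). At 2-fold, 1 probe was higher and 1 was lower, 1.75% each, against 0.938% and 1.26% of all probes. These shares rest on few probes, and nothing is read from their distance to the shares of all probes.

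The 7 probes past 1.5-fold were not spread over the family. Of the 5 lower probes, 3 belonged to SLC25A5 and SLC25A43 on chromosome X. The other 2 lower probes, of SLC25A21 and SLC25A42, and both higher probes, of SLC25A26 and SLC25A16, sat in rows 450 to 510 of the slide. In these rows, called the uneven rows below, lay 183 of the 194 probe spots that the software marked as non-uniform on the SAS array. On the eSAS array it was 5 of the 8. The rows hold 4999 probe spots, so most spots there bore no mark. Of the 43 member probes that were neither on chromosome X nor in these rows, 0 passed 1.5-fold in either direction, and their log2 ratios ran from -0.51 to 0.46. Among all 23124 probes of that kind, 3.12% were higher and 3.76% lower, and among all 2706 probes off X in these rows, 3.33% were higher and 3.14% lower, against 2 and 2 of 7 SLC25 probes. This division was made after the values were seen.

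**Figure D1:**
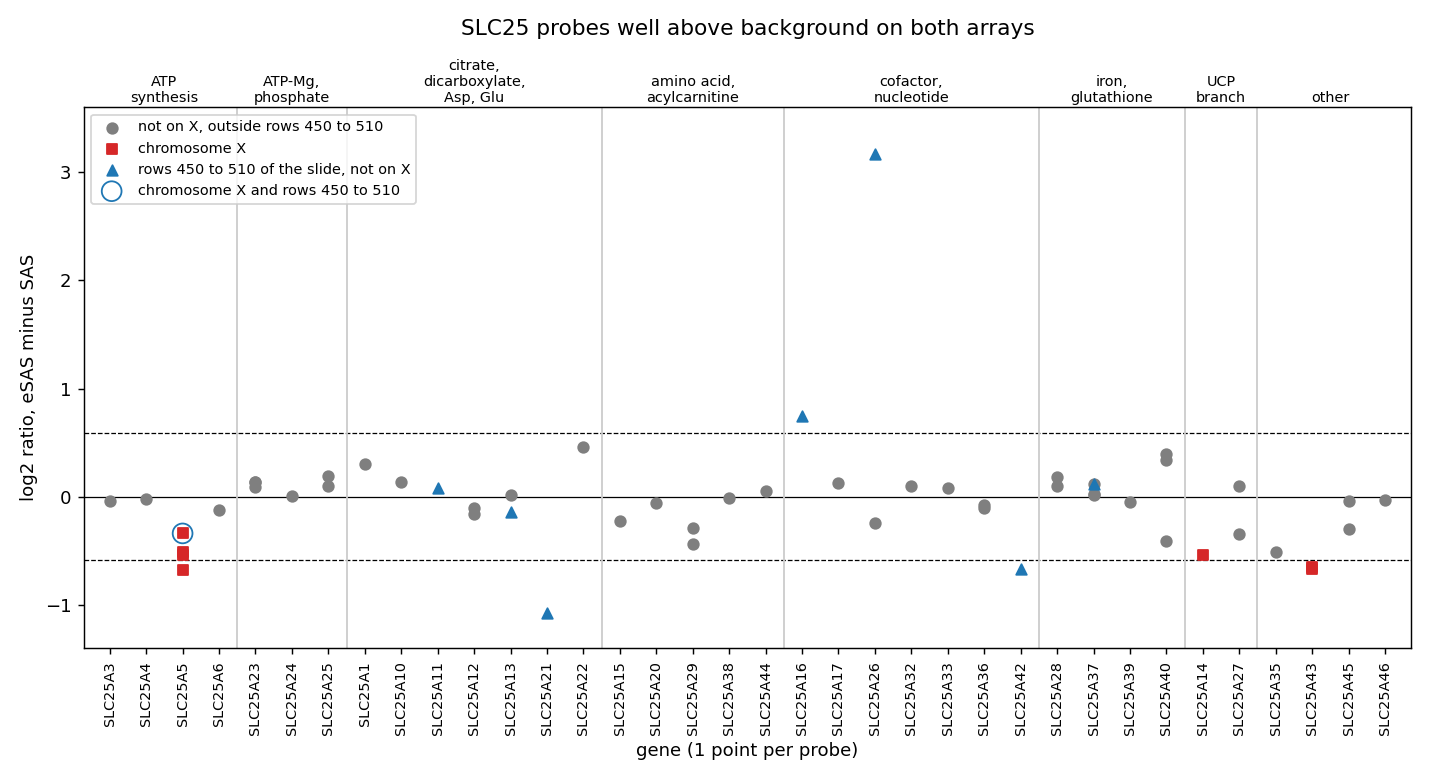
Log2 ratio of eSAS over SAS (vertical axis) for 56 SLC25 probes well above background on both arrays, 1 point per probe, grouped by gene and transported substrate on the horizontal axis; dashed lines mark 1.5-fold. Every point outside the dashed lines is either red (chromosome X) or a blue triangle (rows 450 to 510 of the slide), and there are no error bars because each point is a single spot per array.

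Probe brightness set how small a difference could be read. Probes spotted 10 times on each array gave a technical spread: among 179 such probes, the SD of the log2 ratio between spots of one probe was 0.218 at a SAS signal under 50, 0.127 from 50 to 100, 0.101 from 100 to 300, 0.0477 from 300 to 1000, 0.0371 from 1000 to 5000 and 0.0461 above that. The class under 50 held only 3 of these replicated probes, and the class from 50 to 100 held 9. The SDs of these dim classes, and distances below counted in them, are therefore rough. No separate spread was measured for the uneven rows, so distances counted in these SDs are less sure for member probes there. Every SLC25 probe was spotted once, so its own error was not measured, and the spread between cultures is not included. Of the 57 member probes, 12 lay within 1 such SD of 0 and 26 lay beyond 3. These counts include member probes in the uneven rows. The same was not counted for all probes, so the counts say nothing particular to the family. Signals below are the processed intensity in each array's own units. Log2 ratios are those after scaling each array to its 75th percentile, which was 1242 for SAS and 1196 for eSAS.

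The X-linked carriers were lower in eSAS on every probe. SLC25A5 is the ADP/ATP carrier that proliferating cells use most, SLC25A43 is a carrier whose substrate is not settled, and SLC25A14 belongs to the uncoupling protein branch. The 250 bases upstream of the annotated start of each, from RefSeq on GRCh38.p14, are shown because these genes were lower together and lie on one chromosome, all on the plus strand. Capitals mark a GC box (GGGCGG, or CCGCCC on the other strand) or a TATA box (TATAAA, or TTTATA).
SLC25A5, chrX:119468194-119468443: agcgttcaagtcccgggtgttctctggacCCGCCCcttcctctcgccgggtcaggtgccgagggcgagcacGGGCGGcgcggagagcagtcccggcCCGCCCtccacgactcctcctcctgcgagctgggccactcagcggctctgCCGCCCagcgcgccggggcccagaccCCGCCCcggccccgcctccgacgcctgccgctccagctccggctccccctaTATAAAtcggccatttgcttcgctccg
SLC25A43, chrX:119399086-119399335: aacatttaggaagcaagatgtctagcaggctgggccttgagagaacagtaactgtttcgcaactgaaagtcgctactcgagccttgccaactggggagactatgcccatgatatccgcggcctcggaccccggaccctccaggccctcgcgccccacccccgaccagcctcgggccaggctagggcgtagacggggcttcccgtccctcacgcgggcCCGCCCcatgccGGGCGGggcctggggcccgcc
SLC25A14, chrX:130339669-130339918: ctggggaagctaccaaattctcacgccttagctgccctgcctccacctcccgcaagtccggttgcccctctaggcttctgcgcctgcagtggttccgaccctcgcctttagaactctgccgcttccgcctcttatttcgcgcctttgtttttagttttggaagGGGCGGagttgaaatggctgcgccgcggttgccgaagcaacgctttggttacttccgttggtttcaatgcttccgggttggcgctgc

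The upstream windows of the X-linked genes were not alike. SLC25A5 held 5 GC boxes and 1 TATA box, SLC25A43 held 2 GC boxes, and SLC25A14 held 1. None held a CCAAT box, searched as CCAAT and ATTGG. G and C made up 73.6% of the SLC25A5 window, 66.8% of that of SLC25A43 and 58% of that of SLC25A14. A GC box occurred in 42.6% of all 35116 windows of this length and in 34 of the 51 windows listed for SLC25A genes, and a TATA box in 3763 of all windows and in 4 of the 51. These letter matches describe the windows and say nothing of which factor binds there.

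SLC25A5 had 4 probes, and all were lower in eSAS. The probe in row 117 (hg18 chrX:118489013-118489072) had a signal of 42060 in SAS and 25279 in eSAS, a log2 ratio of -0.68. The probe in row 304 (chrX:118488366-118488425) read 83820 and 56629, a log2 ratio of -0.51, and the probe in row 321 (chrX:118488101-118488385) read 64677 and 42840, a log2 ratio of -0.54. These 3 spots lie far from the uneven rows. The probe in row 458 (chrX:118489159-118489218), inside the uneven rows, read 73524 and 55975, the smallest difference of the 4 at -0.34. Its 8 adjacent spots bore no mark on either array, and the log2 ratios of the 3 of them that were well above background had a median of -0.097. The mean over the probes was -0.52 with an SD of 0.14, and -0.58 without the row 458 probe. The probes do not agree within the spread of replicate spots of like brightness, 0.0461, and hybridisation of the near-identical transcripts of its paralogs or pseudogenes to these probes was not tested.

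SLC25A43 lies beside SLC25A5 on the chromosome. Its probe in row 104 (chrX:118471842-118471901) had a signal of 2328 in SAS and 1426 in eSAS, a log2 ratio of -0.65, and its dim probe in row 440 (chrX:118471027-118471086) read 57.0 and 34.5, a log2 ratio of -0.67. Its bright and dim probes thus gave nearly the same difference, 1 of them past 17 replicate-spot SDs and the other past 5. The gene mean, -0.66, was under 1.5-fold without background correction (-0.44) and with normexp fitted without marked local backgrounds (-0.46). SLC25A14 had 1 probe, in row 221 (chrX:129334861-129334920), which read 3496 in SAS and 2315 in eSAS, a log2 ratio of -0.54.

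These differences were close to that of chromosome X as a whole. The 829 probes on chromosome X had a median log2 ratio of -0.51, and 348 of them, 42.0%, were at least 1.5-fold lower in eSAS, against 3 of the 7 SLC25 probes there. With a SAS signal of at least 1000, the median of the X probes was -0.54 over 358 probes, and outside rows 450 to 510 it was -0.51 over 742 probes. After the median of its own chromosome was taken from each probe, a choice made once the values were known, no X-linked SLC25 probe passed 1.5-fold. These probes ran from -0.68 to -0.34, so that outcome was fixed by the values above and adds nothing to them. SLC25A43 and SLC25A5 probes lay 16.2 kb apart, and among 34 probes of other genes within 1 Mb of them the median log2 ratio was -0.74, with 33 below 0 and 24 at least 1.5-fold lower; the other 788 chromosome X probes had a median of -0.49. Whatever moved with chromosome X between the arrays was not tested here.

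**Figure D2:**
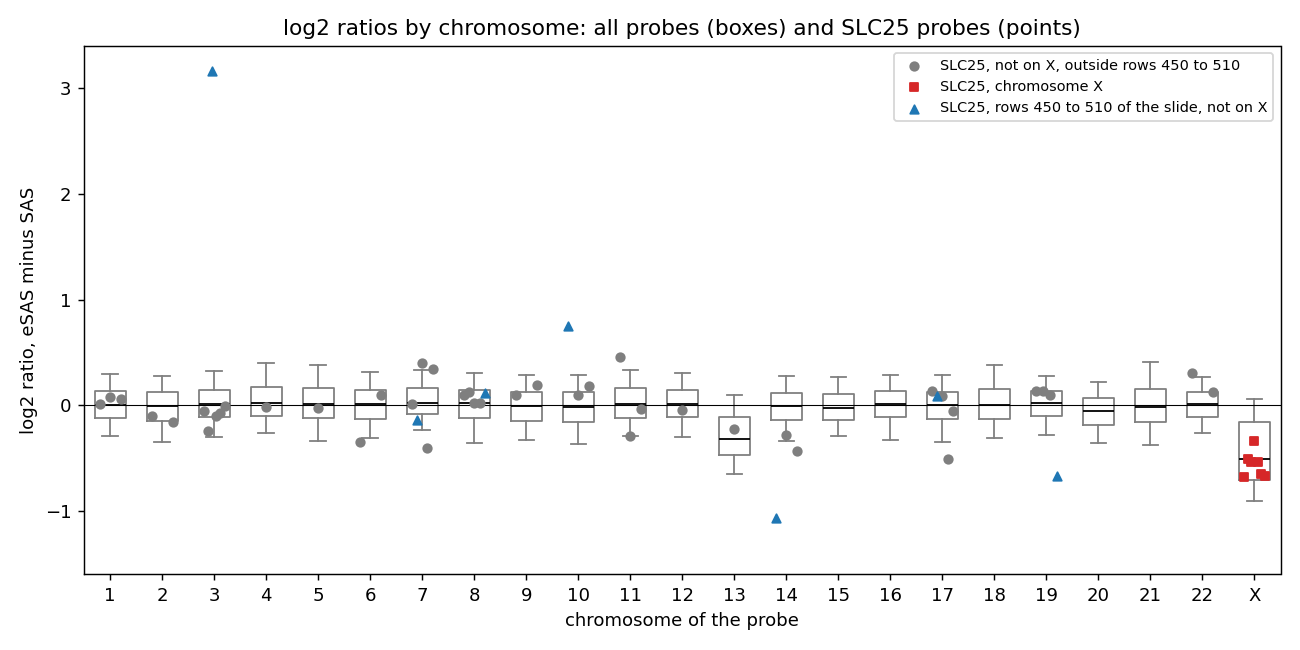
Log2 ratio of eSAS over SAS (vertical axis) by chromosome of the probe (horizontal axis); boxes give the median and quartiles of all probes well above background, whiskers the 10th and 90th percentiles, and points the SLC25 probes. Chromosome X has a median of -0.51 and chromosome 13 one of -0.32, the other autosomes have medians between -0.053 and 0.025, and the 7 red X-linked SLC25 probes sit around the X median.

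SLC25A6, the ADP/ATP carrier gene of the pseudoautosomal region shared by X and Y, differed less than the X-linked carriers above. Its single probe, which the array places on chromosome Y, had a signal of 36523 in SAS and 32308 in eSAS, a log2 ratio of -0.12. Ratios of X probes varied widely (SD 0.44), so a single probe cannot tell whether SLC25A6 departs from chromosome X. SLC25A4, the ADP/ATP carrier of heart and muscle, read 4599 and 4370, a log2 ratio of -0.019, inside its replicate-spot SD. SLC25A31, the testis form, was not well above background on either array. SLC25A3, which imports the phosphate for ATP synthesis, read 63436 and 59342, a log2 ratio of -0.042. Within the ATP synthesis group SLC25A5 was therefore the gene with a difference beyond 0.25, and the other 3 measured genes lay between -0.12 and -0.019.

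SLC25A26, the carrier that brings S-adenosylmethionine into mitochondria for methylation reactions, had 2 probes that disagreed. The probe in row 339 (hg18 chr3:66511457-66511516) had a signal of 47.7 in SAS and 38.8 in eSAS, a log2 ratio of -0.24, about the size of the replicate-spot SD of 0.218 at this brightness. The probe in row 486 (chr3:66396456-66479499, a listed interval far longer than a probe) read 29.8 in SAS and 257 in eSAS, a log2 ratio of 3.17, the highest in the family. Their mean was 1.46, and without rows 450 to 510 the gene stood at -0.24, so the direction of the gene rested on 1 spot.

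The row 486 spot was uneven on the SAS array. Its pixels had a mean of 75.8, a median of 38 and an SD of 70.0, an SD over mean of 0.923 against a median of 0.279 among 20513 spots within 2-fold of its brightness, of which 6 were as uneven. On the eSAS array its mean was 287, its median 276 and its SD over mean 0.198. The software marked it on neither array. Among its 8 adjacent spots, 2 were marked non-uniform on the SAS array, and of the 4 well above background on both arrays 2 were at least 2-fold higher in eSAS, with a median log2 ratio of 0.58. Within 100 scanner pixels, or 0.5 mm, 29 of 160 spots were marked on the SAS array and 30 of the 97 measured were at least 1.5-fold higher in eSAS. Around the row 339 spot, 0 of 157 were marked and 5 of 109 were that much higher. Marked spots stayed in these counts of adjacent and nearby spots but not in the shares of all probes given earlier. The counts and those shares are therefore not like for like. The row 339 spot itself had an SD over mean of 0.241 on SAS and 0.233 on eSAS, near the medians of 0.248 and 0.258 for spots like it.

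**Figure D3:**
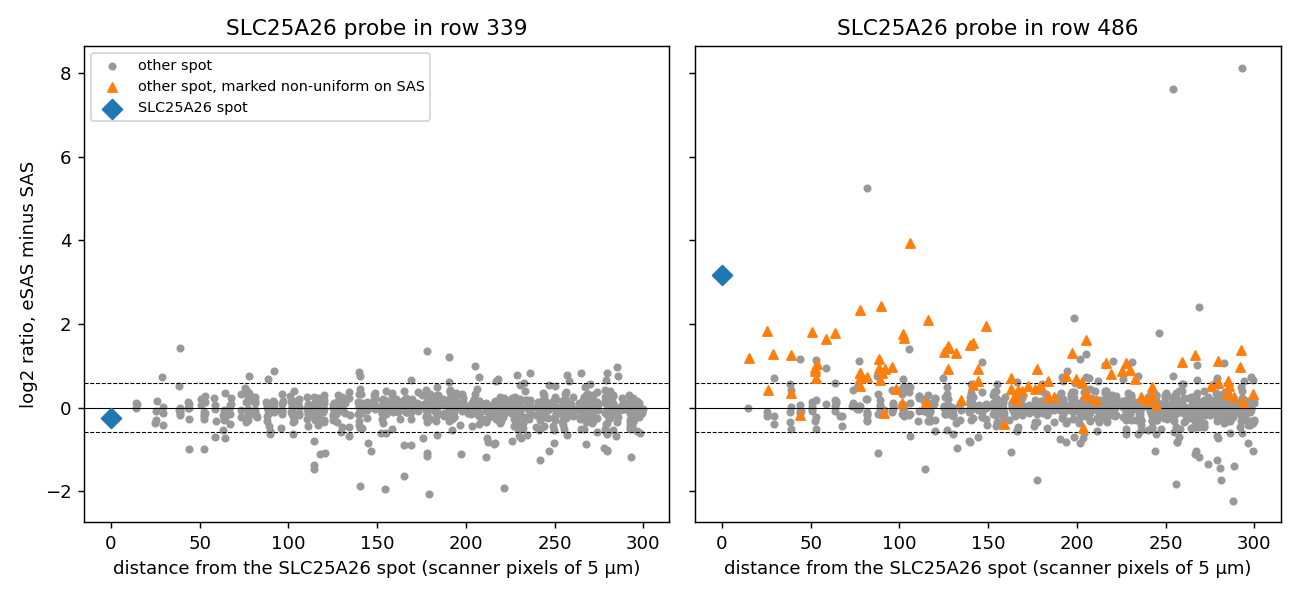
Log2 ratio of eSAS over SAS (vertical axis) for measured spots against their distance from each SLC25A26 spot in scanner pixels of 5 µm (horizontal axis); dashed lines mark 1.5-fold. Around row 486 (right), spots marked non-uniform on the SAS array lie mostly above 0 and the SLC25A26 spot reads 3.17, while around row 339 (left) no spot was marked and the SLC25A26 spot reads -0.24.

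The other cofactor carriers gave 2 more calls, both from the same rows. SLC25A16, linked to coenzyme A supply in the matrix, had 1 probe (row 480, chr10:69912671-69912730) with a signal of 372 in SAS and 601 in eSAS, a log2 ratio of 0.75. Its SAS spot was uneven too, with a pixel SD over mean of 0.484 against a median of 0.145 among 7768 like spots, 59 of them as uneven, and 3 of its 8 adjacent spots were marked. Its median pixel was 442 on SAS and 572 on eSAS, closer together than the processed signals. SLC25A42, which carries coenzyme A and adenosine phosphates, read 57.8 in SAS and 35.0 in eSAS on its row 473 probe (chr19:19084038-19084097), a log2 ratio of -0.67, and its row 485 probe was not well above background. The row 473 spot was as even as spots like it (0.232 against 0.243 on SAS), and 0 of its adjacent spots were marked. Without background correction the log2 ratio was -0.26, and with normexp fitted without marked local backgrounds it was -0.33, both under 1.5-fold.

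The remaining cofactor and nucleotide carriers named here stood within 0.13 of 0 on the log2 scale. SLC25A17, the peroxisomal carrier of cofactors such as coenzyme A, read 1886 in SAS and 1983 in eSAS (0.13). SLC25A32, for folate and FAD, read 7735 and 7955 (0.095). The pyrimidine nucleotide carrier SLC25A33 read 2347 and 2388 (0.079), and its relative SLC25A36 read 12770 and 11468 (-0.10) on one probe and 4338 and 3958 (-0.078) on another, while its probe in row 447 was not well above background. So after scaling SLC25A33 was slightly higher and SLC25A36 slightly lower in eSAS, each beyond its replicate-spot SD and far under 1.5-fold. With no scaling SLC25A33 was 0.025, inside its replicate-spot SD of 0.0371, and the SLC25A36 mean was -0.14. That SD holds no uncertainty of the scaling between arrays, so the direction of SLC25A33 is not settled.

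Carriers of citrate, dicarboxylates, aspartate and glutamate held one of the larger differences outside X and the uneven rows. SLC25A22, a glutamate carrier, had a signal of 2561 in SAS and 3389 in eSAS, a log2 ratio of 0.46. SLC25A1, which exports citrate for fatty acid and sterol synthesis, read 1809 and 2148, a log2 ratio of 0.30. Both were higher in eSAS by over 8 replicate-spot SDs, from a single probe each. SLC25A18, the other glutamate carrier, was not well above background on either array.

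The malate-aspartate shuttle carriers were nearly level. SLC25A11, the oxoglutarate carrier, read 1520 in SAS and 1551 in eSAS (0.084), from a spot in row 497 with 2 marked neighbours. SLC25A13, the aspartate/glutamate carrier of liver and proliferating cells, read 3962 and 3847 (0.012) on its row 144 probe and 1764 and 1537 (-0.14) on its row 500 probe. SLC25A12, the form of brain and muscle, read 2832 and 2442 (-0.16) and, on a dim probe, 132 and 118 (-0.10). SLC25A10, the dicarboxylate carrier, read 812 and 859 (0.13). SLC25A21, which carries oxoadipate in lysine breakdown, read 60.5 in SAS and 27.7 in eSAS on its single probe (row 470, chr14:36219521-36219580), a log2 ratio of -1.07 and the lowest in the family. This spot lies in the uneven rows, but it was even on both arrays (pixel SD over mean 0.208 and 0.228), its neighbours bore 0 marks, and the 2 measured neighbours had a median of -0.12. Its signal was low on both arrays, and the difference was under 1.5-fold without background correction (-0.43) and with normexp fitted without marked local backgrounds (-0.45).

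Among amino acid and acylcarnitine carriers, SLC25A29, for basic amino acids, was lower in eSAS on both probes. The probe in row 441 read 2465 in SAS and 1759 in eSAS, a log2 ratio of -0.43, and that in row 249 read 630 and 498, a log2 ratio of -0.29. SLC25A15, the ornithine carrier of the urea cycle, read 2892 and 2383, a log2 ratio of -0.23. It lies on chromosome 13, where the median of 490 probes was -0.32 and 13.3% were at least 1.5-fold lower, and relative to that median it stood at 0.094. The other 3 measured genes of the group were within 0.06 of 0. SLC25A20, for carnitine and acylcarnitines, read 406 and 376 (-0.054); SLC25A38, for glycine in haem synthesis, read 1152 and 1100 (-0.012); and SLC25A44, for branched-chain amino acids, read 3513 and 3515 (0.055). SLC25A2, the second ornithine carrier, was not well above background.

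The iron and glutathione carriers had no call, and 1 of them had probes of opposite sign. SLC25A40, a glutathione carrier, read 567 in SAS and 718 in eSAS on the row 37 probe (0.40) and 267 and 326 on the row 527 probe (0.34), but 533 and 387 on the row 39 probe (-0.41). The last was designed on another transcript record, and each departs from 0 by over 3 replicate-spot SDs, so the gene mean of these probes stands for none of them. SLC25A39, its paralog, read 7676 and 7133 (-0.051). Mitoferrin SLC25A28 read 6843 and 7060 (0.099) and 767 and 840 (0.19). The 4 probes of mitoferrin SLC25A37 lay between 0.019 and 0.12, from signals of 34.1 to 3072 in SAS.

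The ATP-Mg/phosphate carriers, which adjust the adenine nucleotide pool of the matrix, were level or slightly higher in eSAS. SLC25A23 read 1360 in SAS and 1441 in eSAS, 1411 and 1450, and 83.1 and 88.0 on its 3 probes, log2 ratios of 0.14, 0.094 and 0.14. SLC25A25 read 1452 and 1594 (0.19) and 60.3 and 62.2 (0.099), and SLC25A24 read 2141 and 2075 (0.0098). All 6 probes were on the same side of 0, within 0.19 of it, after scaling. With no scaling SLC25A24 was -0.045, while the means of SLC25A23 and SLC25A25 were 0.069 and 0.090. The shared sign therefore depended on the scaling. SLC25A41 was not well above background.

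In the uncoupling protein branch and among carriers of unsettled substrate, dim probes carried the differences apart from X. SLC25A27 read 37.8 in SAS and 28.6 in eSAS (-0.34) on one probe and 150 and 154 (0.095) on the other, and SLC25A30 was not well above background on either array. SLC25A35 read 79.1 and 53.5, a log2 ratio of -0.51 and the lowest among probes off X and outside the uneven rows, 4 replicate-spot SDs from 0, and -0.24 without background correction. SLC25A45 read 33.1 and 26.0 (-0.29) and 41.9 and 39.2 (-0.039), and its probe in row 208 was not well above background. SLC25A46, which acts at the outer membrane in mitochondrial dynamics, read 2544 and 2405 (-0.026).

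**Figure D4:**
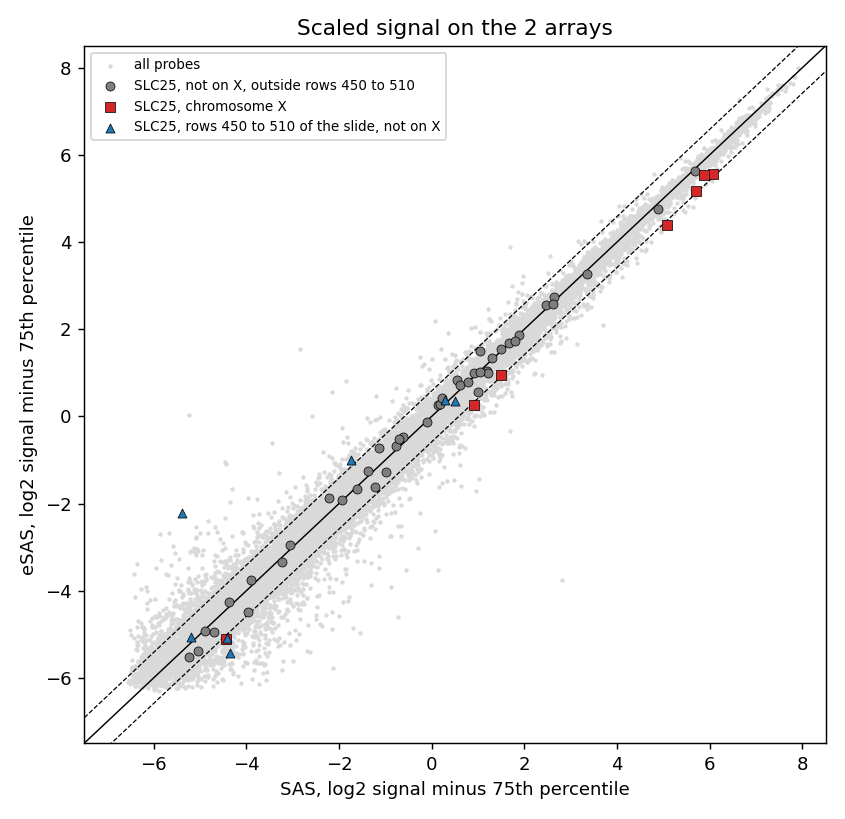
Scaled log2 signal on the SAS array (horizontal axis) against the eSAS array (vertical axis), with all measured probes in light grey and the 57 SLC25 probes in colour, 1 point per probe; the solid line marks equality and the dashed lines 1.5-fold. The 4 bright SLC25A5 probes and 3 other X-linked probes (red) lie below equality at every brightness, while the SLC25A26 probe of row 486 lies far above it at low signal.

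Genes with more than 1 measured probe gave a check between spots. Of 14 such genes, 10 had all probes on one side of 0 and 9 had probes within 0.25 of each other. The widest gaps were those of SLC25A26 and SLC25A40. Another 3 probes that the array lists under older names belong to the family in RefSeq: SLC25A47 read 46.9 in SAS and 41.3 in eSAS (-0.13), SLC25A51, which brings NAD into mitochondria, read 706 and 689 (0.020), and SLC25A52 read 175 and 163 (-0.043). None differed by 1.5-fold.

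Genes that serve the carriers were counted in the same way, against 3.19% of all 19467 genes at least 1.5-fold higher in eSAS and 4.99% at least 1.5-fold lower. Of 14 measured genes for importing carriers into the inner membrane, 0 were at least 1.5-fold higher and 1 lower, with a median log2 ratio of -0.0014. That gene, TIMM8A, a chaperone of the intermembrane space, lies on X and read 4513 in SAS and 2794 in eSAS (-0.64) on one probe and 1745 and 1122 (-0.58) on the other. Of 20 genes for other transport through the mitochondrial membranes, 0 were higher and 1 lower (median -0.031). TIMM8A thus shared the direction of the X-linked carriers and of their chromosome.

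Enzymes that use the carried substrates were counted against the same shares of all genes, 3.19% higher and 4.99% lower. Of 23 genes listed as matrix enzymes, 2 were higher and 0 lower in eSAS, with a median log2 ratio of -0.0080. Where in the cell each listed enzyme acts was not checked. Among the higher genes was GATM, the first enzyme of creatine synthesis, a dim probe with 61.0 in SAS and 129 in eSAS (1.13). Of 19 cytosolic enzymes, 0 were higher and 1 lower (median 0.030). It was GCLM, a subunit of the enzyme that starts glutathione synthesis, with 2599 and 1779 (-0.49) on one probe and 2715 and 1591 (-0.72) on the other. The glutathione carrier SLC25A39 did not differ by 1.5-fold.

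Keratins of squamous and simple epithelium were measured on both arrays. Of 7 epithelial markers measured, 0 were at least 1.5-fold higher and 2 lower in eSAS, where 3.19% of all genes were higher and 4.99% lower. The median log2 ratio of the 7 was -0.48. The basal keratin KRT14 read 8749 in SAS and 88.3 in eSAS on one probe (-6.58) and 3136 and 1286 on the other (-1.23), and KRT5 read 22037 and 13677 (-0.63). KRT17 (-0.55), CDH1 (-0.48) and the dim KRT6A probe (-0.46) were lower as well, short of 1.5-fold. The simple epithelial keratins were on the other side of 0, KRT8 with log2 ratios of 0.16 and 0.082 and KRT18 with 4 probes from 0.022 to 0.21. Markers of fibroblasts were well above background on both arrays for 0 of 6 genes, of leukocytes for 1 of 4 and of endothelium for 1 of 3, and UCP1, ALB and CKM, of tissues with restricted carriers, for 0 of 3. How the keratin difference relates to any SLC25 value was not tested.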

How the data were processed

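Total RNA of SAS and eSAS was hybridised to 1 array each of a 1-colour Agilent whole-genome design, whose probe positions are in hg18. The authors deposited the output of Agilent Feature Extraction 10.7.3.1 (per the submitters' processing notes), linear intensity per spot: a processed signal with its background subtracted and no scaling between arrays; pixel means, medians and SDs; local backgrounds; and other columns with the software's marks and spot positions, used as deposited. The authors' series table equalled the processed signal in every spot.

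Control spots were dropped. Spots the software marked (non-uniform or population outlier) were dropped from probe and gene values and kept in the counts of adjacent and nearby spots. The log2 processed signal minus each array's 75th percentile over probe spots (1242 for SAS, 1196 for eSAS) was used, which sets the 75th percentiles equal and removes any overall difference in RNA amount. Of 43376 probe spots, 69.4% on SAS and 67.5% on eSAS were well above background. A gene took the mean of its probes that passed this criterion on both arrays. The depth of an array has no read count, and 1 array per condition limits the precision of all values. No test was made. A probe was called at 1.5-fold or 2-fold. For unevenness, spots within 2-fold of its brightness were compared, and the 8 nearest spots counted as adjacent.

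Named were all SLC25A genes well above background, and genes of the pathway lists that passed 1.5-fold; some single genes are counted but not reported here. Members and lists were chosen with earlier results of these data known. Of the 65 probes, 56 matched RefSeq by accession, each with the array's symbol. Promoters came from the RefSeq table of GRCh38.p14. The alternatives were scaling, background, filter and row settings. R 4.3.3 with limma 3.58.1, Python 3.11.15, pandas 2.3.3 and numpy 2.4.6 were used. Simulated arrays with known changes were used to test the scripts.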

Additional observations from a re-analysis of the deposited data

How the results depend on the processing

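With 1 array per condition, the limits of these values are those of 2 hybridisations: no spread between cultures was measured, each SLC25 probe was 1 spot per array, and probes under a signal of 100 had replicate-spot SDs of 0.127 or more. The SDs at these low signals rest on few replicated probes, 3 under 50 and 9 from 50 to 100. No paired analysis was possible because each condition had 1 array, and a block for the slide was not run for the same reason. Leaving out chromosome X members, taking chromosome medians away and fitting normexp without marked local backgrounds were chosen after the values were seen.

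Normexp with an offset of 50, fitted on all spots, raised the median of all genes to 0.68, itself past 1.5-fold. It put the SLC25 median at 0.067 (-0.61 relative to all genes), the higher count at 21 and the lower count at 9. The share of all probes past 1.5-fold was not counted under this setting. SLC25A26 was 2.67, the X-linked SLC25 median was -0.85 and the chromosome X median was 0.21 (-0.47 relative to all genes). SLC25A21 turned to 2.34, SLC25A42 to 2.33 and SLC25A43 to 0.84, of which 1.66, 1.65 and 0.16 remained relative to all genes. When spots with a marked local background were kept out of that fit, the median of all genes was -0.0071, the lower count was 2, SLC25A26 was 0.79 and the chromosome X median was -0.39. Without background correction the lower count was 2, SLC25A26 was 0.95 and the chromosome X median was -0.39. Without rows 450 to 510 the higher count was 0, the lower count was 3 and SLC25A26 turned to -0.24. Relative to the chromosome median the lower count was 2, as it was without chromosome X members. With no filter on dim probes the chromosome X median was -0.28. Under the other settings run (centring on the median, no scaling, quantile normalization, the series table, 1 array well above background, marked spots kept, median over probes), the values for the family, SLC25A26 and chromosome X shifted by under 0.0660, the replicate-spot SD at all brightnesses, or for SLC25A26 by under 0.218, and the counts stayed within 1.5 times. Of 497 values of single genes under these alternatives, over 36 genes, 389 moved by less than their replicate-spot SD. The sign changed in 22, of which 13 were under normexp with all spots. The 3 among these whose difference had been at least 1.5-fold are those given above. Part of the 389 was fixed in advance. No member probe was marked or well above background on 1 array only, so those 2 settings could not change a member. Leaving out chromosome X members left the other genes as they were, and the series table repeated no scaling. The SD used was the largest among a gene's probes, so the 389 does not measure robustness.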

Other observations

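Of the regulators of mitochondrial biogenesis, 10 of 11 listed genes were measured, with a median log2 ratio of 0.056. TFB1M, a methyltransferase of mitochondrial ribosomal RNA, read 1735 in SAS and 2549 in eSAS (0.61). PPARGC1B, a coactivator of mitochondrial gene programmes, read 215 and 126 (-0.72) from a spot in row 476. Of the family members that carry or carried other symbols, 8 of the 11 listed were measured, SLC25A44 among them, with a median of -0.043 and 0 genes past 1.5-fold in either direction. The uncoupling proteins proper were dim or split: UCP2 read 20.0 and 17.3 (-0.15), and UCP3 read 185 and 106 (-0.76) on one probe and 2260 and 2451 (0.17) on the other. CPT1A, which makes the acylcarnitines that SLC25A20 carries, read 75.5 and 162 (1.15) on a probe in row 499 and 63.0 and 39.6 (-0.61) on a probe in row 187, the same split by row as SLC25A26 had. Members not well above background on either array also had raw ratios that could mislead: SLC25A30, in row 484, read 3.35 in SAS and 18.7 in eSAS, and no fold is given for it.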
